A study of Mus musculus with 12 samples.

Results

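The splicing factor genes described here are the protein-coding mouse genes whose symbols begin with Hnrnp, with Srsf or Sf3a or Sf3b followed by a digit, or with Snrp in the GRCm38 annotation. The symbol chose them, with no measured value used. The rule found 52 genes among the 35272 genes of the files, of which 21899 are protein coding. They comprise 20 Hnrnp genes, 11 Srsf genes, 9 Sf3a or Sf3b genes (called Sf3 below) and 12 Snrp genes. Together they hold 367 annotated transcripts of the 113694 that were matched.

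RNA was measured in the prefrontal cortex of female C57BL/6JN mice that were 4 months old (young) or 20 months old (old). Each age was given saline or morphine, an opioid receptor agonist, at 3 mg/kg into the peritoneum. The 4 groups (young saline, young morphine, old saline, old morphine) had 3 libraries each, and strain, sex and tissue were the same in all of them. How long after injection the tissue was taken is not given in the labels, nor whether the 3 libraries of a group came from separate mice. The p-values therefore cover the variation among these libraries only, which may be technical.

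Splicing removes introns from a nascent transcript and joins its exons. The Sm proteins encoded by the Snrp genes form the core of the small nuclear ribonucleoproteins, and the SF3a and SF3b proteins belong to the U2 particle that recognises the branch point. SR proteins (Srsf) mostly promote the use of nearby exons, hnRNP proteins often oppose it, and many genes of both families produce transcripts of their own that keep an intron or carry an early stop codon and are not translated into the full protein.

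Estimated reads per library numbered 20236452 to 40480571 in 11 libraries and 148856113 in the second young morphine library. Markers of the tissue were present: the 6 markers of cortical excitatory neurons summed to 1110 to 1480 TPM (a level per transcript length, scaled to the same total in each library) in every library. The 5 olfactory bulb markers were not even across libraries. They summed to 72.5 TPM in young morphine replicate 3, 70.6 in old morphine replicate 1, and 32.0 and 34.2 in old saline replicates 1 and 2, against 3.24 to 6.58 in the other 8 libraries. None of the 5 was under 0.1 TPM throughout. The 6 oligodendrocyte markers summed to 454 to 651 TPM in young saline, 802 to 918 in young morphine, 587 to 754 in old saline and 700 to 840 in old morphine.

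Levels per length differed widely among the genes. Among the Hnrnp genes Hnrnpa2b1, an RNA-binding protein of nascent transcripts, had the highest mean over the 12 libraries at 449 ± 31.3 TPM (SD, n = 12), followed by Hnrnpk at 424 ± 26.2 TPM. These neighbours overlapped, with 394 to 501 TPM for Hnrnpa2b1 and 384 to 459 TPM for Hnrnpk. Hnrnph3 had the lowest mean of the family, 46.7 TPM. Among the SR proteins Srsf5 (346 TPM) and Srsf1 (212 TPM) were highest and Srsf12 (19.9 TPM) was lowest. Sf3b1, the large SF3b scaffold, had 145 TPM and Sf3b2 98.2 TPM, while Sf3b5 had 6.91 TPM. Snrpn, the neuronal counterpart of the Sm protein SmB, had the highest mean of all 52 genes at 691 TPM, followed in its family by Snrpe at 90.6 TPM, with Snrpg lowest at 30.5 TPM. Snrpn overlaps Snurf, and several Hnrnp genes have near-identical pseudogene copies, so the reads of these genes could have been divided in more than 1 way.

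The annotation labels each transcript by kind. The 367 transcripts comprised 174 protein-coding, 103 retained-intron, 40 nonsense-mediated-decay and 50 processed transcripts, the last being transcripts without an open reading frame in the annotation. Of the 52 genes, 36 have a retained-intron transcript, 24 have a decay transcript and 39 have at least 1 of the 2 kinds. Retained-intron transcripts made up 18.3 ± 1.22% of the TPM of the 52 genes (SD, n = 12, range 16.0 to 20.0%), against 8.16 ± 0.617% for the other 21847 protein-coding genes. Decay transcripts made up 6.0 ± 0.293% against 1.87%, and coding transcripts 68.3 ± 1.76% against 85.5%. In each of the 12 libraries the retained-intron share of the splicing factors was above that of the other genes, whose highest value was 8.93%. This compares 2 sums and holds no test over genes. The 2 sets were not matched for how many of their genes have an annotated retained-intron transcript. Salmon divides reads among overlapping transcripts of a gene, so a share rests on how well their differing parts are covered. The libraries were made from total RNA, which also holds RNA that is not yet spliced, and its part in these shares was not tested.

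The families differed in these shares. Srsf genes had 35.5 ± 1.99% of their TPM in retained-intron transcripts, Sf3 genes 22.5 ± 1.28%, Hnrnp genes 16.6 ± 1.16% and Snrp genes 3.43 ± 0.759% (SD, n = 12), and the ranges of these 4 shares over libraries did not overlap between families. Snrp genes, at 2.22 to 4.54%, lay below the other protein-coding genes, at 6.75 to 8.93%. This family share is a sum of TPM and carries the weight of Snrpn. Snrpn, at 691 TPM against 90.6 TPM or less for each other Snrp gene, has no annotated retained-intron transcript. Among the other Snrp genes the share ran from 0.0% (Snrpe and Snrpf) to 42.0% (Snrpb2). Srsf11 stood highest of all genes with 79.4 ± 2.31%. Srsf1, the SR protein first known as SF2, had 46.4 ± 3.11%, Sf3b1 45.0 ± 2.92% and Hnrnpa2b1 44.0 ± 1.68%. Decay transcripts carried most in Srsf9 (49.7 ± 2.76%), Hnrnpa1 (39.7 ± 4.12%) and Hnrnpu (33.6 ± 1.96%), the last a nuclear matrix protein. Hnrnph1, which binds runs of G, has neither kind, yet 77.1% of its TPM lay in processed transcripts and 22.9% in its coding transcripts. In Hnrnpd, also called AUF1, coding transcripts held 90.6% and retained-intron transcripts 2.21 ± 1.70%.

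**Figure D1:**
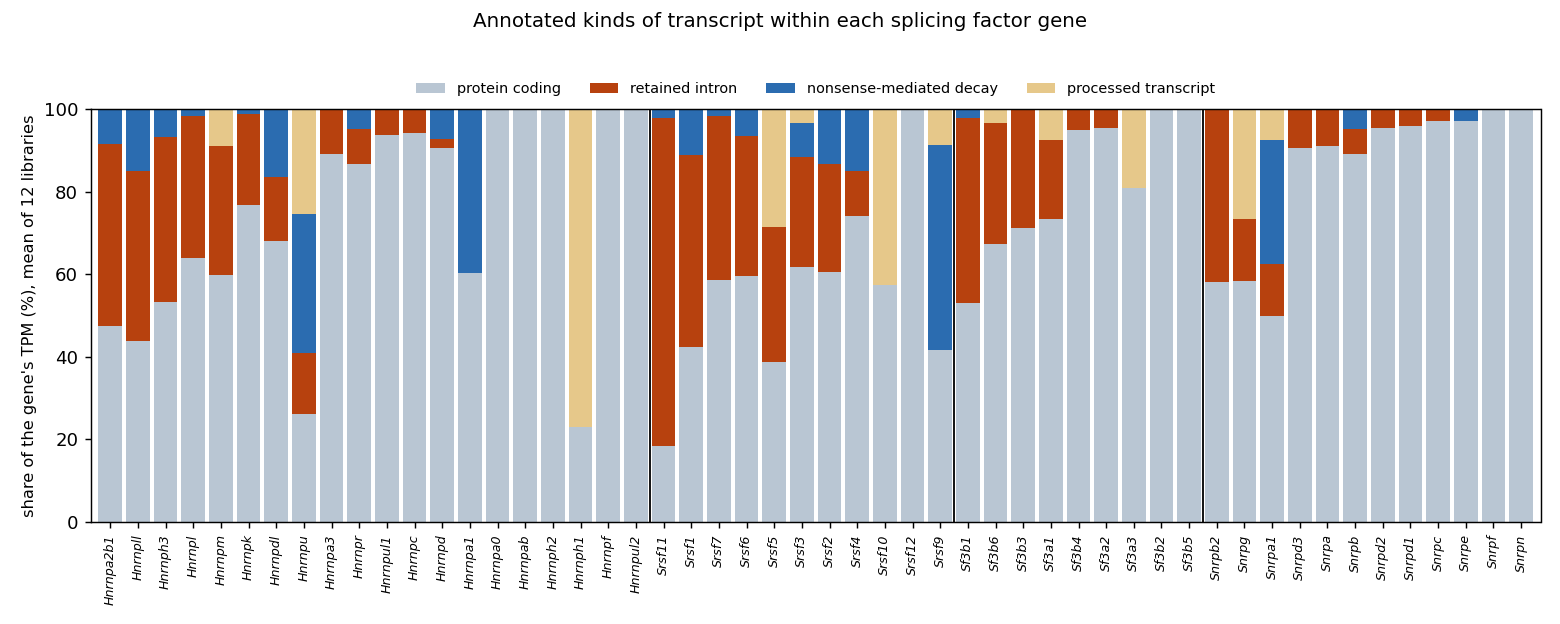
Share of each gene's TPM (%, mean of 12 libraries) by annotated kind of transcript, with genes grouped by family (Hnrnp, Srsf, Sf3, Snrp from left to right, separated by black lines) and ordered within a family by the retained-intron share. Srsf11 reaches 79.4% in retained-intron transcripts, while Snrp genes other than Snrpb2, Snrpg and Snrpa1 are at 89.2% or more in coding transcripts.

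Of the 103 retained-intron transcripts, 34 hold at least 1 whole intron that a coding transcript of the same gene removes. They keep 46 distinct introns in 21 genes, with a median length of 435 bases (78 to 3580) and a median GC share of 38.6%, and 39 of the introns lie between coding exons. All 46 start with GT and end with AG. The sites of 5 of them are shown because they mark where a retained-intron transcript parts from the coding transcripts that remove the intron. Each line gives 30 bases of the GRCm38 transcript sequence 5′ to 3′, with 10 exon and 20 intron bases, and capitals mark the GT that starts the intron (donor) or the AG that ends it (acceptor).
Srsf5-212 donor, chr12:80947856-80947885, plus strand: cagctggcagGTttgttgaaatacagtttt
Srsf5-212 acceptor, chr12:80949075-80949104, plus strand: cataattgtcttgtgttaAGgatctcaaag
Srsf1-203 donor, chr11:88049589-88049618, plus strand: tctcgctctcGTacataagatgattggtga
Srsf1-203 acceptor, chr11:88049957-88049986, plus strand: tttcatgtgtctttctgtAGacatatctga
Srsf7-206 donor, chr17:80205242-80205271, minus strand: gaagaagcagGTatttaattaatgaaggaa
Srsf7-206 acceptor, chr17:80204378-80204407, minus strand: ttttctaacttaaaaaatAGgtcacgatct
Sf3b1-203 donor, chr1:55016356-55016385, minus strand: tttgcagatgGTaattctttcccacttttc
Sf3b1-203 acceptor, chr1:55014553-55014582, minus strand: gttgctgttcttttctgcAGgagggaagac
Hnrnpa2b1-213 donor, chr6:51466283-51466312, minus strand: ggaagaggagGTaatgttatttatttatgt
Hnrnpa2b1-213 acceptor, chr6:51466213-51466242, minus strand: attagattactatgttctAGgaaactttgg
The intron kept in Srsf5-212 is 1229 bases long and all 5 coding transcripts of Srsf5 remove it. Srsf5-212 had a mean of 101 TPM. The intron of Srsf7-206 (874 bases, 5.66 TPM) is removed by all 4 coding transcripts of its gene, and that of Sf3b1-203 (1813 bases, 32.9 TPM) by the only coding transcript. The intron of Srsf1-203 (378 bases, 65.2 TPM) is removed by 1 of 3 coding transcripts. The intron of Hnrnpa2b1-213 shown here (80 bases, 27.5% GC, 16.7 TPM) is removed by 5 of 6.

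Age, treatment and their combination were compared on estimated counts per gene, given as CPM (counts scaled to library size). All 52 genes passed the filter on low counts. Changes below are log2 differences from edgeR's quasi-likelihood test with Benjamini-Hochberg adjustment over all 16796 genes tested, and a gene is called at an adjusted p under 0.05. The comparisons share groups with one another: old morphine stands in both the comparison of treatments in old mice and the comparison of ages under morphine.

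Part of the Hnrnp and Srsf families was higher in old than in young mice when both had been given morphine, while few Sf3 and Snrp genes were called. In that comparison 21 of the 52 genes were called, where 9.65% of all genes tested were. Of these 20 rose, against 4.93% of all genes, and 1 fell, against 4.72%. None of the 52 was called once a trend on GC share and length was taken out, and 1 was called on length-scaled counts, both described below. The median log2 change of the 52 genes was 0.13, against 0.01 over all genes tested, and 16 of the 52 changes were below 0. By family, 12 of 20 Hnrnp genes and 6 of 11 Srsf genes rose, while 1 of 9 Sf3 genes rose (Sf3b1) and 1 fell (Sf3b5), and 1 of 12 Snrp genes rose (Snrpd1). Family medians were 0.23 for Hnrnp, 0.24 for Srsf, 0.01 for Sf3 and -0.07 for Snrp. The 20 genes that rose did so by 0.2 to 0.44 on the log2 scale, with a median SE of 0.06. Groups did not overlap, old above young, in 26 genes (17.1% of all genes) and old below young in 6 (16.0%). Leaving out the 4 libraries with olfactory bulb markers above 10 TPM left 5 genes called, all higher: Hnrnpd, Hnrnpa2b1, Hnrnph1, Hnrnpu and Srsf1, with 2.08% of all genes called. That fit kept young morphine replicates 1 and 2 and old morphine replicates 2 and 3. Summed markers of cortical excitatory neurons (1390 to 1480 TPM in young and 1110 to 1200 TPM in old morphine), of microglia (209 to 230 and 185 to 202 TPM) and of oligodendrocyte precursors (40.7 to 42.7 and 28.8 to 38.5 TPM) also separated these groups, and their part in the result was not tested. In bulk tissue fewer cells of a type and less RNA per cell cannot be told apart. Without young morphine replicate 1 the count was 6, without old morphine replicate 3 it was 8 and without young morphine replicate 3 it was 13. The share of all genes called is not given here for these fits, so whether calls also fell among other genes cannot be told.

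Hnrnpd binds AU-rich elements in mRNA. Its counts were 128, 135 and 132 CPM in young morphine and 160, 178 and 183 CPM in old morphine, with 143, 139 and 140 CPM in young saline and 156, 148 and 135 CPM in old saline. All 3 old morphine libraries were above the other 9. The log2 change with age under morphine was 0.39 ± 0.06 (SE, n = 3 per group; edgeR adjusted p = 0.00454), and 0.31 with the GC and length trend taken out (edgeR adjusted p = 0.0744).

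Hnrnpa2b1 had 207, 229 and 223 CPM in young morphine and 273, 285 and 299 CPM in old morphine. Young saline held 218, 238 and 236 CPM and old saline 247, 246 and 220 CPM, so old morphine again lay above every other library. Its change with age under morphine was 0.38 ± 0.06 (edgeR adjusted p = 0.00511), and 0.12 without the trend (edgeR adjusted p = 0.443).

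Hnrnph1 had 141, 146 and 150 CPM in young morphine and 188, 183 and 194 CPM in old morphine. Young saline held 139, 145 and 148 CPM and old saline 163, 148 and 147 CPM. The 3 old morphine libraries were the highest, and the change with age under morphine was 0.37 ± 0.05 (edgeR adjusted p = 0.00339, the smallest of the 52). Without the trend it was 0.18 (edgeR adjusted p = 0.192).

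**Figure D2:**
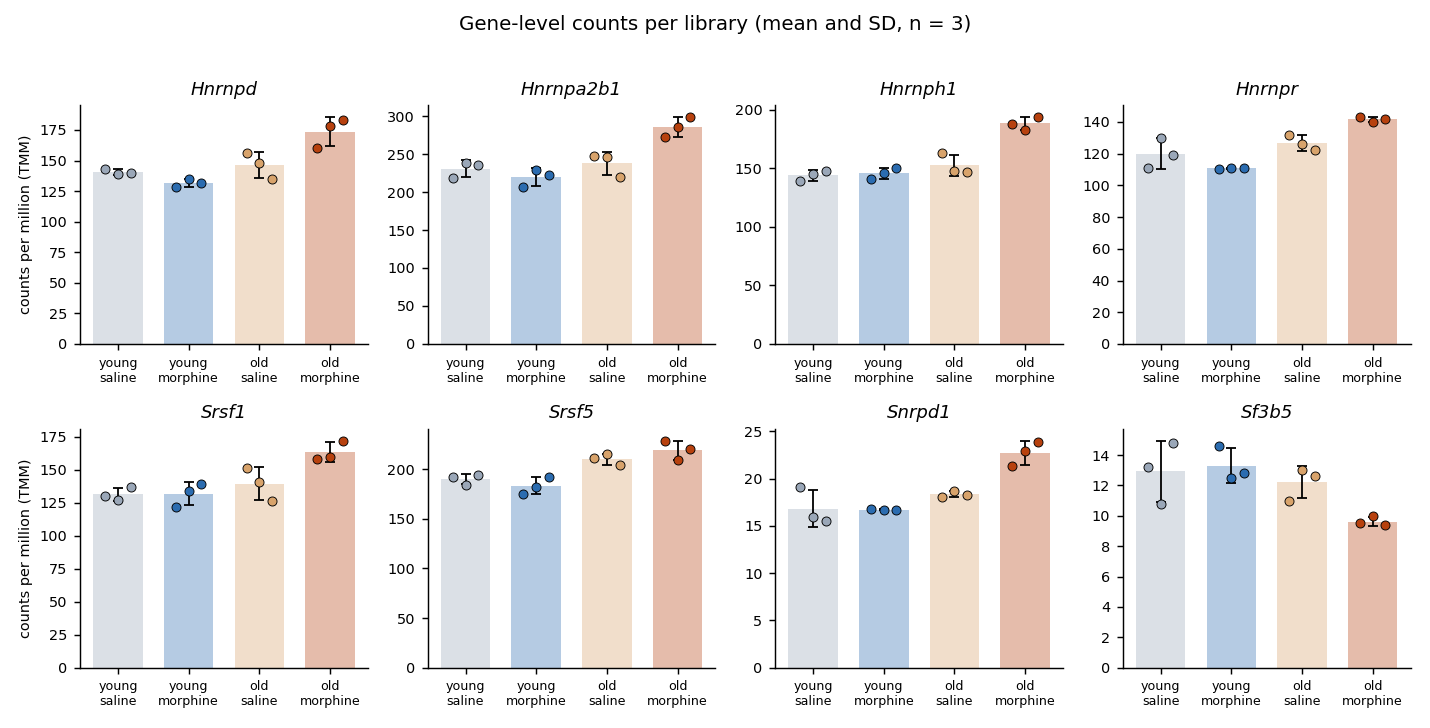
CPM (TMM scaling) of 8 splicing factor genes in the 4 groups, with each point a library, bars the group mean and error bars the SD (n = 3). For Hnrnpd, Hnrnpa2b1 and Hnrnph1 the 3 old morphine libraries lie above the other 9, and for Sf3b5 they lie lowest, at 9.38 to 9.96 CPM.

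Hnrnpr, a close relative of the neuronal RNA-binding protein SYNCRIP, was nearly constant within the morphine groups. Its counts were 110, 111 and 111 CPM in the young mice and 143, 140 and 142 CPM in the old ones. It rose by 0.35 ± 0.06 (edgeR adjusted p = 0.00491). Other Hnrnp genes that rose, in order of size, were Hnrnph3 (0.39), Hnrnpa3 and Hnrnpu (0.29 each), Hnrnpdl and Hnrnph2 (0.26 each), Hnrnpa1 (0.25), Hnrnpm (0.21) and Hnrnpc (0.20). Hnrnpu was the most abundant of these in counts, with group means of 440 ± 18.1 and 538 ± 23.2 CPM (SD, n = 3) under morphine, the second in old mice. The 8 Hnrnp genes not called had changes from -0.09 (Hnrnpa0, 95% interval -0.22 to 0.04) to 0.22 (Hnrnpll, 0.05 to 0.40). Hnrnpk, with 0.06 (-0.04 to 0.16), was among them.

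Among the SR proteins, Srsf1 had 122, 134 and 139 CPM in young morphine and 158, 160 and 172 CPM in old morphine. The groups did not overlap and Srsf1 rose by 0.31 ± 0.07 (edgeR adjusted p = 0.0143). Srsf5, which responds to insulin signalling in other cells, rose by 0.26 ± 0.05 (edgeR adjusted p = 0.0101), from 175, 182 and 192 to 228, 209 and 220 CPM. Srsf10, a splicing repressor when dephosphorylated, rose by 0.30 ± 0.07, Srsf11 by 0.32, Srsf3 by 0.30 and Srsf6 by 0.22. Srsf2, Srsf4, Srsf7, Srsf9 and Srsf12 were not called, with changes from -0.15 (Srsf9, 95% interval -0.30 to 0.01) to 0.24 (Srsf7, 0.05 to 0.43).

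In the U2 particle, Sf3b1 held 237, 261 and 265 CPM in young morphine and 290, 308 and 320 CPM in old morphine, a rise of 0.27 (95% interval 0.13 to 0.40; edgeR adjusted p = 0.0201). Sf3b5, a small subunit of the same complex, went the other way, from 14.6, 12.5 and 12.8 CPM to 9.53, 9.96 and 9.38 CPM, and fell by 0.46 on the log2 scale (interval -0.71 to -0.22; edgeR adjusted p = 0.0232). The other 7 Sf3 genes had changes between -0.13 and 0.15.

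Of the Sm proteins, Snrpd1 (SmD1) held 16.8, 16.7 and 16.7 CPM in young morphine and 21.3, 22.9 and 23.9 CPM in old morphine and rose by 0.44 ± 0.08 (edgeR adjusted p = 0.00783). Its ring partner Snrpg had 9.66, 8.21 and 8.01 CPM in young morphine against 5.42, 6.41 and 7.42 CPM in old morphine, groups that did not overlap, but a change of -0.42 (interval -0.73 to -0.12) was not called (edgeR adjusted p = 0.0737). Snrpn differed by -0.09 (interval -0.27 to 0.09).

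**Figure D3:**
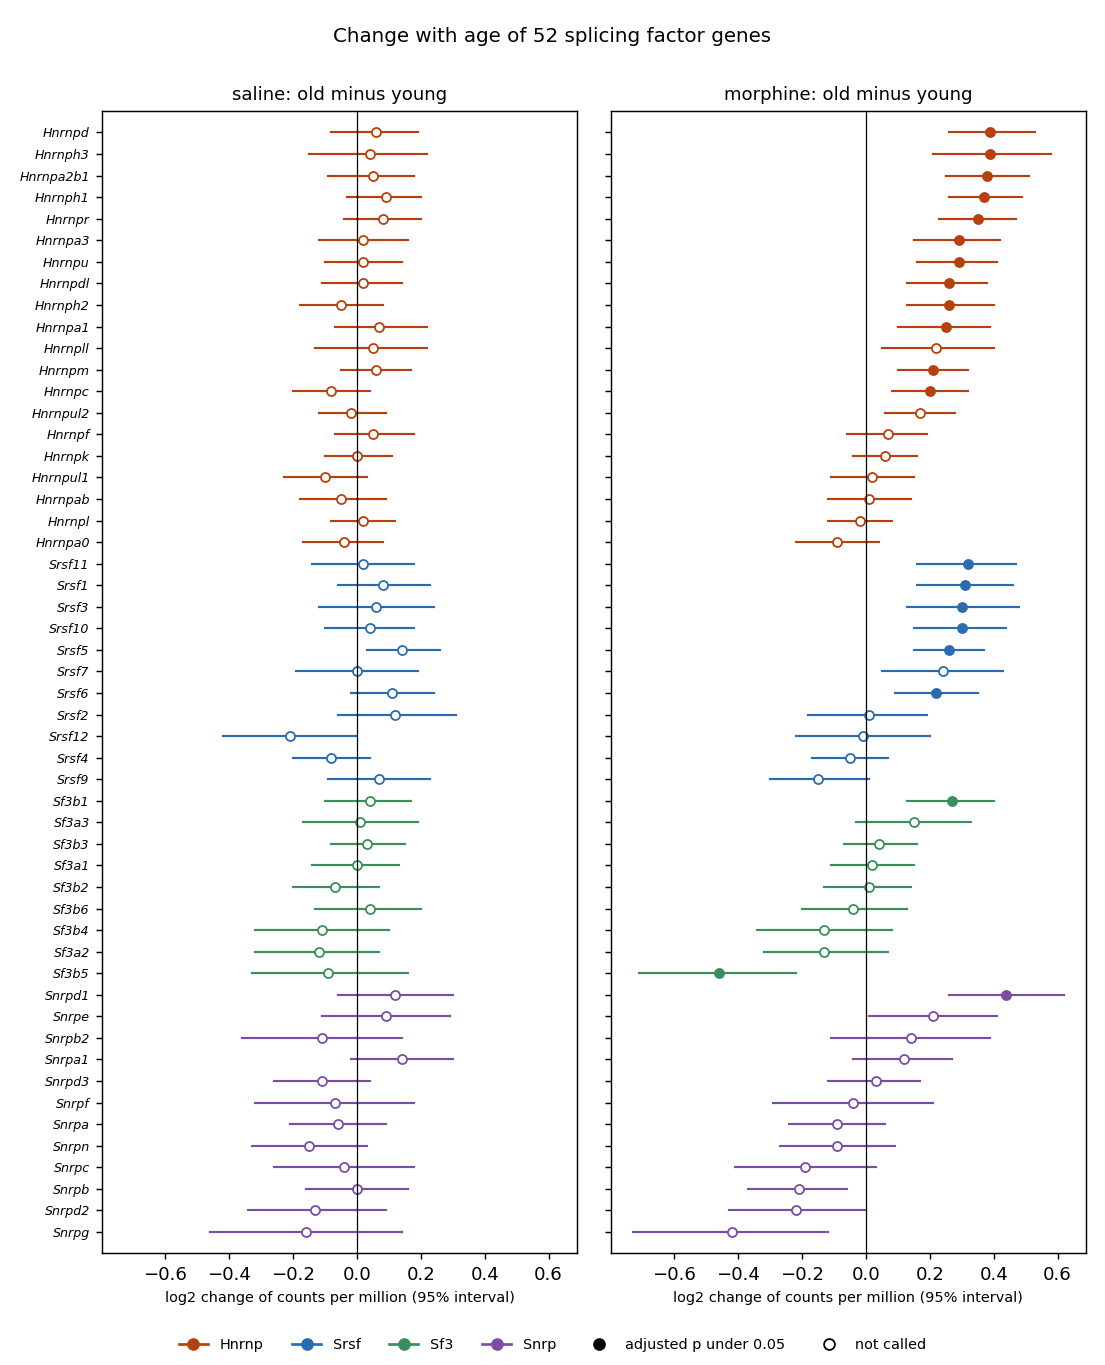
Log2 change of CPM between old and young mice under saline (left) and under morphine (right) for the 52 genes, with 95% intervals from edgeR (n = 3 libraries per group) and colour by family. Filled points have an adjusted p under 0.05: none under saline, and under morphine 20 genes above 0 and Sf3b5 below it.

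No splicing factor gene was called by age without morphine. Under saline 0 of 52 genes were called by edgeR and 0 by DESeq2 (edgeR called 0.464% of all genes, 0.238% higher and 0.226% lower), and 2 had an unadjusted edgeR p under 0.05, as did 13.5% of all genes. The changes ranged from -0.21 to 0.14 with a median of 0.02, against 0.01 over all genes. Srsf5 had the smallest p: its 192, 184 and 194 CPM in young saline lay below its 211, 215 and 204 CPM in old saline, and the change was 0.14 (95% interval 0.03 to 0.26; edgeR adjusted p = 0.253). Srsf12 was at -0.21 (interval -0.42 to -0.00; edgeR adjusted p = 0.368). Hnrnph1 (0.09, interval -0.03 to 0.20), Hnrnpd (0.06, -0.08 to 0.19) and Hnrnpa2b1 (0.05, -0.09 to 0.18) overlapped between ages. Groups did not overlap in 3 genes that were higher in old mice (9.15% of all genes) and 3 that were lower (8.92%).

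Morphine in young mice moved none of the 52 genes past the threshold. The count was 0 by edgeR and by DESeq2 (0.0% of all genes by edgeR), and 1 gene, Hnrnpdl, had an unadjusted edgeR p under 0.05, as did 9.11% of all genes. Hnrnpdl had 137, 122 and 123 CPM with saline and 116, 115 and 119 CPM with morphine, a change of -0.13 (95% interval -0.25 to -0.00; edgeR adjusted p = 0.542). Hnrnpd was at -0.09 (interval -0.22 to 0.04), with groups that did not overlap, Hnrnpa2b1 at -0.07 (-0.20 to 0.06) and Hnrnph1 at 0.01 (-0.10 to 0.13). In all, 1 gene was higher in every morphine library (8.28% of all genes) and 3 were lower (8.22%).

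Morphine in old mice raised 1 gene past the threshold. Hnrnph1 rose by 0.30 ± 0.05 (SE, n = 3 per group; edgeR adjusted p = 0.0225), from 163, 148 and 147 CPM with saline to 188, 183 and 194 CPM with morphine, while 0.583% of all genes were called. This rise was not seen in levels per length. Hnrnph1 had 280, 375 and 339 TPM in old saline and 340, 355 and 259 TPM in old morphine. These overlapped, with means of 331 and 318 TPM, and the gene was not called on length-scaled counts. An unadjusted p under 0.05 was reached by 24 genes, Hnrnph1 included (18.7% of all genes), and 41 of the 52 changes were above 0 (49.4% of all), with a median of 0.10 against -0.0 over all genes. Morphine libraries lay wholly above saline libraries in 20 genes (10.7% of all genes) and below in 4 (9.75%). Next after Hnrnph1 were Srsf10 (0.31, 95% interval 0.17 to 0.45; edgeR adjusted p = 0.0535), Hnrnpa2b1 (0.26, 0.13 to 0.40; 0.0648), Hnrnpd (0.25, 0.11 to 0.38; 0.0763) and Hnrnph2 (0.24, 0.11 to 0.37; 0.0784). Hnrnpul2, Hnrnpu and Snrpd1 followed with 0.19, 0.22 and 0.31. The count of 1 was not stable: leaving out 1 library at a time gave 0 to 8, with 8 when old saline replicate 1 was left out and 0 when old saline replicate 2 or 3, or old morphine replicate 2 or 3, was left out. For these fits the share of all genes called is not given here. Without the 4 libraries with olfactory bulb markers only old saline replicate 3 stayed in its group, so no count is given for that fit. On all libraries DESeq2 called 11 genes, against 4.58% of all genes.

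The difference between the morphine effects at the 2 ages was tested directly. No gene of the 52 was called by edgeR (0.0% of all genes), 17 had an unadjusted p under 0.05 (10.8% of all genes), and DESeq2 called 1, Hnrnph1, and 0.518% of all genes. Of the 52 differences 38 were above 0 (47.7% of all), with a median of 0.12 against -0.01 over all genes. Hnrnpd differed by 0.34 (95% interval 0.15 to 0.53), Hnrnpa2b1 by 0.33 (0.15 to 0.52), Hnrnph2 by 0.32 (0.13 to 0.50) and Hnrnph1 by 0.29 (0.13 to 0.45), each with an edgeR adjusted p of 0.271. Hnrnpc (0.28), Hnrnpr (0.27), Hnrnpu (0.27) and Hnrnpdl (0.24) came next, with edgeR adjusted p from 0.280 to 0.347. The same quantity is the age change under morphine minus the age change under saline, so the age changes were not shown to differ between treatments.

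Base composition moved with these changes. The GC share used here is that of a gene's transcripts, weighted by their TPM. Its median was 45.6% for the 52 genes and 50.1% for all genes tested. The 20 genes that rose with age under morphine had a median of 43.8% (39.9 to 46.7%) and the 31 not called 49.5% (39.8 to 60.3%). Of the 38 splicing factor genes under the median GC share, 20 rose, against 9.34% of all genes in that range, and Sf3b5 fell. None of the 14 genes at or above it was called, where 0.477% of all genes rose and 9.26% fell. How far the families' differing counts of called genes follow their GC shares was not tested. Across the 52 genes Spearman's rho between GC share and log2 change was -0.66, and across 16780 genes it was -0.57. For morphine in old mice rho was -0.67 and -0.37. Genes within a library are not independent and share its depth and preparation, so rho is a description.

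With a smooth trend on GC share and length taken out of each library, none of the 52 genes was called for age under morphine (0.256% of all genes were), and the smallest adjusted p was 0.0643. All 20 genes that had risen kept a change above 0, with a median of 0.14 in place of 0.29, and 11 of them had an unadjusted p under 0.05. These 20 were picked by their rise in the same libraries, so their kept signs and p-values are not separate evidence of a rise. The SE of the changes given above was 0.07 for Hnrnpd, 0.06 for Hnrnpa2b1 and 0.05 for Hnrnph1. Over all 52 genes the median was 0.06, against -0.0 over all genes. This trend also takes out a biological change shared by genes of like GC share.

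**Figure D4:**
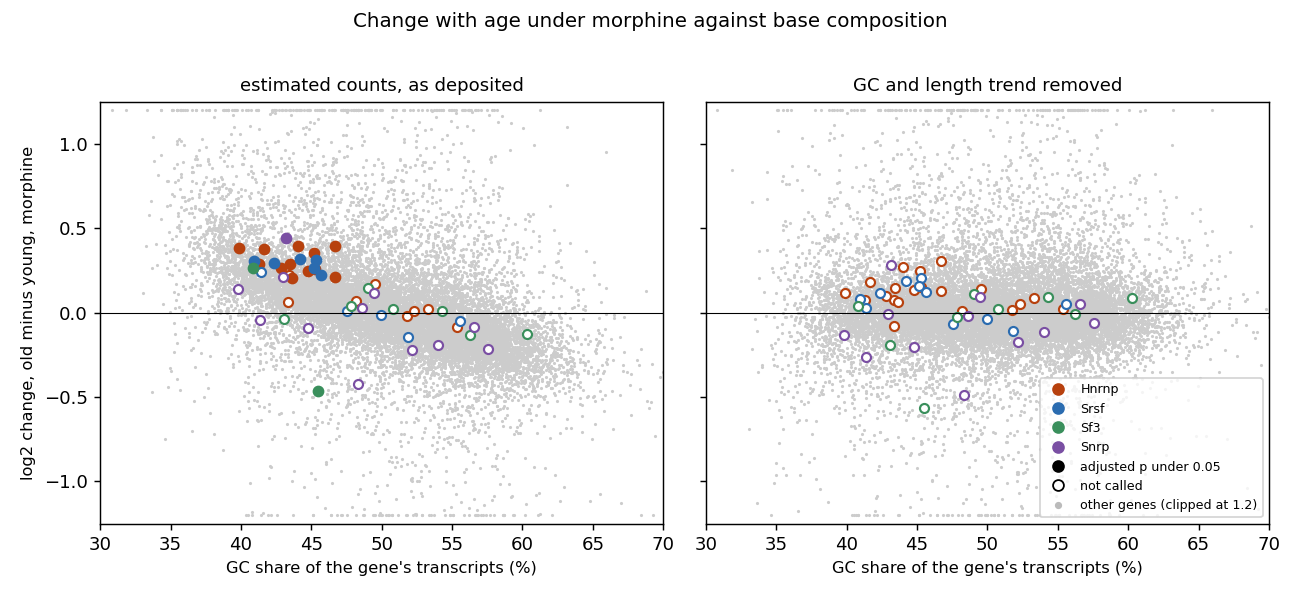
Log2 change with age under morphine against the GC share of each gene's transcripts (%), for the deposited estimated counts (left) and after a trend on GC share and length was taken out of each library (right). Grey points are other tested genes and coloured points the 52 splicing factor genes, filled where the adjusted p is under 0.05. The 20 genes that rose lie between 39.9 and 46.7% GC, and no point is filled on the right.

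The deposited effective lengths, by which TPM divides the reads, moved too. They were longer in old than in young morphine libraries for 17 of the 20 genes that rose, with a median log2 ratio of 0.1, and for 15 of the 31 not called, with a median of -0.0. For Srsf1 the ratio was 0.24, from a mean of 1279 to 1512 bases, and its level per length was 219 TPM in young and 215 TPM in old morphine libraries while its CPM rose. Hnrnpr had a ratio of 0.18 and levels of 66.0 and 68.8 TPM. Mean levels were 432 and 481 TPM for Hnrnpa2b1, 256 and 318 TPM for Hnrnph1 and 178 and 203 TPM for Hnrnpd, but on this scale young and old morphine libraries overlapped in all 3 genes. None of the 3 was called on length-scaled counts (edgeR adjusted p = 0.0667, 0.133 and 0.148). On counts scaled for these lengths 1 gene was called, Hnrnpm (0.39; edgeR adjusted p = 0.0195), against 0.148% of all genes. The effective length of Hnrnpm went the other way, from a mean of 1586 bases in young to 1379 in old morphine (log2 ratio -0.2). Its change on this scale therefore also carries that shift in length. All 20 changes stayed above 0 on length-scaled counts, with a median of 0.15, and 13 had an unadjusted p under 0.05. Here too the 20 genes had been picked by their rise in the same libraries, so this is not separate evidence.

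Genes that work with these factors were read from the same fit, in which 4.93% of all genes rose and 4.72% fell (9.34% and 0.191% of the genes under the median GC share). Of 8 kinases of SR proteins, 1 rose with age under morphine: Clk1, from 84.7 ± 4.50 to 107 ± 3.80 CPM (SD, n = 3), by 0.34 (edgeR adjusted p = 0.012). Of 31 tested tissue regulators of splicing, 6 rose and 1 fell. Mbnl1, a muscleblind protein, rose by 0.36 (edgeR adjusted p = 0.00516), followed by Ptbp3 (0.30), Tra2b (0.29), the neuronal regulator Nova1 (0.28), Qk (0.25), which acts in oligodendrocytes, and Mbnl2 (0.17). Celf3 fell by 0.27. In the spliceosome core outside the 52 genes, 13 of 54 rose and 2 fell. Those that rose included Luc7l2, a U1-associated protein, by 0.43, Prpf39 by 0.41, Rbm25 by 0.40, Pnn by 0.35, Prpf38b by 0.33, Luc7l3 by 0.31, Prpf38a by 0.28, Prpf3 and Snrnp48 by 0.27 each, Rbm39 by 0.25, Ddx46 by 0.21 and Srrm1 by 0.20, while Prpf19 and Puf60 fell by 0.19 each. With the GC and length trend taken out, Prpf39, Nova1 and Mbnl2 were each at -0.05, and on length-scaled counts Prpf19 was at 0.10. Of 16 genes of nonsense-mediated decay and the exon junction complex 2 rose, Upf2 (0.28) and Upf3b (0.34).

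These lists follow GC share as well: the called kinase, the 6 tissue regulators, the 13 core genes and the 2 decay genes that rose have GC shares of 36.3 to 47.3%, and Celf3, Prpf19 and Puf60, which fell, are at 58.2, 53.4 and 57.0%. Median log2 changes over the lists were 0.07, 0.03, 0.06 and 0.03, against 0.01 over all genes. For morphine in old mice, where 0.47% of all genes rose, 2 core genes rose, Prpf3 (0.37; edgeR adjusted p = 0.0357) and Pnn (0.35; 0.0239), as did Upf2 (0.27; 0.0198). No gene of the 4 lists was called by age under saline, by morphine in young mice or for the difference between the morphine effects. The smallest unadjusted p values there belonged to Nova2 (-0.16) under saline, Celf1 (-0.14) in young mice and Upf2 (0.33; edgeR adjusted p = 0.255) for the difference.

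Single transcripts were tested on estimated counts per transcript, of which 296 of the 367 passed the filter among 59815 tested. None was called in any of the 5 comparisons. Of all transcripts 0.0134% were called by age under saline, 0.00167% by morphine in young mice, 0.0117% by morphine in old mice, 0.00669% for the difference between morphine effects and 0.0652% by age under morphine, of which 0.0518% were lower. For morphine in old mice, and likewise for the difference, 0.00502% were lower. The splicing factor transcripts with an unadjusted p under 0.05 numbered 17, 12, 36, 36 and 63 in that order, where 6.94, 4.38, 8.39, 5.8 and 11.1% of all transcripts had one, and the smallest adjusted p values were 0.198, 1, 0.359, 0.602 and 0.106. Changes below are on the count scale and levels are TPM, which also carry the effective lengths.

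Hnrnph3-202, a coding transcript of a gene related to Hnrnph1, had the smallest p in 3 comparisons. It held 6.20, 7.35 and 7.17 TPM in young saline and 4.78, 5.37 and 5.44 TPM in young morphine, then 3.37, 3.02 and 4.37 TPM in old saline and 5.41, 5.36 and 5.81 TPM in old morphine. Morphine libraries were thus all below saline in young mice and all above saline in old mice. The log2 change with age under saline was -1.04 (95% interval -1.41 to -0.66; edgeR adjusted p = 0.198). The 2 morphine effects were -0.50 and 0.77, and their difference was 1.28 (0.76 to 1.80; edgeR adjusted p = 0.602).

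Hnrnpk-232, 1 of 18 coding transcripts of Hnrnpk, went the opposite way. It held 25.8, 31.7 and 17.1 TPM in young saline and 39.4, 44.2 and 42.4 TPM in young morphine, against 32.9, 38.3 and 37.7 TPM in old saline and 17.6, 23.1 and 18.5 TPM in old morphine. Neither pair of groups overlapped. The 2 morphine effects were 0.66 and -0.76, with a difference of -1.42 (95% interval -2.00 to -0.83; edgeR adjusted p = 0.617), while the gene as a whole differed little between groups.

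Among the retained-intron transcripts with the smallest p values, none of them called, Srsf1-206 held 31.5, 41.0 and 41.5 TPM in young morphine and 28.5, 23.5 and 24.9 TPM in old morphine, a log2 change of -0.76 (95% interval -1.14 to -0.38; edgeR adjusted p = 0.127) in a gene whose summed count rose. Srsf7-206, whose splice sites are shown above, held 9.93, 6.48 and 5.02 TPM in old saline and 0.997, 3.21 and 1.98 TPM in old morphine, with a change of -1.67 (-2.60 to -0.75; edgeR adjusted p = 0.399). Hnrnpa2b1-211 held 60.9, 63.3 and 76.4 TPM in young morphine and 92.0, 78.8 and 70.6 TPM in old morphine. These overlapped on the TPM scale, and on counts the change was 0.67 (0.36 to 0.99; edgeR adjusted p = 0.116). Sf3b1-203 differed between the morphine effects by 0.36 (0.12 to 0.60; edgeR adjusted p = 0.809).

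Other transcripts with small p values were of the coding, decay and processed kinds. By age under morphine these were Hnrnpd-211 (coding, log2 change 0.36, edgeR adjusted p = 0.106), Hnrnph1-204 (processed transcript, 0.46, 0.137) and Snrpd1-201 (coding, 0.42, 0.147), which carries 90.1% of the TPM of its gene. The decay transcript Hnrnpu-206, at 98.4 ± 7.12 TPM in old saline and 112 ± 7.67 TPM in old morphine (SD, n = 3), changed by 0.26 (edgeR adjusted p = 0.377). In young mice the decay transcript Srsf2-204 went from 15.9, 18.1 and 23.9 TPM with saline to 8.59, 12.2 and 3.98 TPM with morphine (-1.24, 95% interval -2.28 to -0.20; edgeR adjusted p = 1). In the same mice the coding transcripts Hnrnpk-224 (-0.54), Srsf5-201 (-0.37) and Hnrnpl-201 (-0.82) were lower on average with morphine, with edgeR adjusted p of 1. The coding transcript Hnrnph2-202 differed between the morphine effects by 0.78 ± 0.21 (SE; edgeR adjusted p = 0.809). By age under saline, Hnrnpa2b1-201 (0.41), Sf3b3-203 (0.46), Hnrnpl-206 (0.21), Hnrnph1-207 (0.55) and Hnrnpf-204 (0.53) were higher in old mice in all 3 libraries, with edgeR adjusted p from 0.606 to 0.682.

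**Figure D5:**
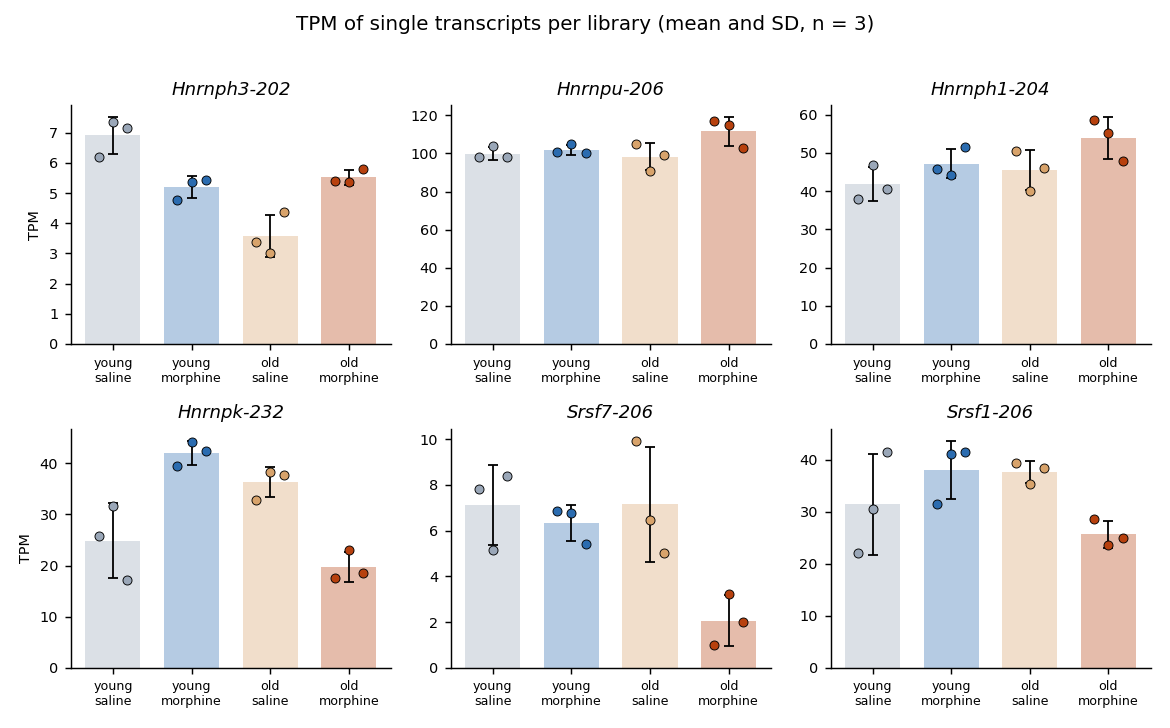
TPM of the 6 transcripts of at least 1 TPM on average with the smallest p for morphine in old mice, in the 4 groups, with each point a library, bars the group mean and error bars the SD (n = 3). Hnrnph3-202 and Hnrnpk-232 differ between saline and morphine in opposite directions at the 2 ages, and Srsf7-206 is lowest in old morphine, at 0.997 to 3.21 TPM. None of these differences passed the threshold over all transcripts.

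The balance between retained-intron or decay transcripts and coding transcripts within a gene was taken as the log2 ratio of retained-intron plus decay TPM to coding TPM, and tested with limma in the 39 splicing factor genes that have both, among 7628 genes. None of the 39 was called in any comparison, where 0.0262% of all genes were called by age under saline and 0.0262% by morphine in young mice, and 0.0% in the other 3. The genes with an unadjusted p under 0.05 numbered 2, 2, 1, 2 and 2, where 6.87, 3.85, 7.01, 5.58 and 7.54% of all genes had one (age under saline, morphine in young mice, morphine in old mice, difference, age under morphine). DESeq2 does not apply to these ratios. Median shifts were 0.12 by age under saline and 0.10 by age under morphine, against 0.15 and 0.13 over all 7628 genes.

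Srsf6 had the smallest p of these ratios. The share of retained-intron and decay TPM (over these plus coding) was 34.4, 37.9 and 35.3% in young saline and 44.1, 42.2 and 47.7% in young morphine, and the log2 ratio changed by 0.53 (95% interval 0.19 to 0.87; limma adjusted p = 0.999). Srsf2 went the other way in the same mice, from 39.8, 42.8 and 43.4% to between 34.8 and 38.0% (-0.35, -0.66 to -0.03; limma adjusted p = 0.999). Both pairs of groups were separate. The difference between the morphine effects was 0.51 for Srsf2 (0.06 to 0.95; limma adjusted p = 0.869) and 2.98 for Snrpa, a U1 particle protein (0.37 to 5.59; 0.869). Snrpa also had a change of -1.88 with age under saline (-3.73 to -0.03; limma adjusted p = 0.705).

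In old mice Sf3b6, a branch-point protein, had 40.4, 32.4 and 33.9% with saline and 30.6, 18.4 and 21.1% with morphine (-0.88, 95% interval -1.61 to -0.15; limma adjusted p = 0.695). Hnrnpl, which binds CA repeats, had 30.6, 38.5 and 33.6% in young morphine and 43.8, 39.7 and 40.9% in old morphine (0.45, 0.02 to 0.88; limma adjusted p = 0.654). Sf3b3 had 34.4, 29.1 and 31.5% in old morphine, each above its 3 young morphine values (0.37, 0.00 to 0.74; 0.662). Under saline Hnrnpm changed by 0.47 with age (0.02 to 0.93; 0.705), with 29.5, 33.1 and 28.9% in young and 39.4, 36.3 and 37.8% in old mice. Hnrnpa2b1 stayed between 48.6 and 55.0% in all 12 libraries, and its change with age under morphine was 0.16 (-0.15 to 0.46; limma adjusted p = 0.817). Hnrnpd, at 4.90 to 14.7%, had a change of -0.02 with an interval of -1.04 to 0.99. Both genes rose in counts, and neither had a called change of balance.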

How the data were processed

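Total RNA was depleted of ribosomal RNA and made into libraries with the KAPA RNA HyperPrep kit, per the labels' protocols. The submitters' processing notes name Salmon 1.4.0, DESeq2 1.30.1 and GRCm38. Each deposited file lists 113911 transcripts with their estimated count of reads and TPM, per the file headers. Length and effective length are deposited beside them. No source used here states the strand or bias settings or the annotation release. In each library 13.7 to 17.0% of the matched transcripts had an effective length above their annotated length. Whether a bias correction lies behind this was not tested.

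Of these transcripts 113694 were matched to GENCODE M21. The other 217, with 0.079 to 0.099% of a library's reads, were set aside. Gene values are sums of the deposited estimated counts, rounded to whole numbers. edgeR 4.0.16 (R 4.3.3; filterByExpr, TMM, quasi-likelihood test) was fitted over 12 libraries with 1 coefficient per group, leaving 8 residual degrees of freedom, and limma 3.58.1 tested the ratio of retained-intron plus decay to coding TPM (pseudocount 0.1, mean of each kind at least 0.5 TPM). DESeq2 1.42.0 was an alternative. With 3 libraries per group, an exact two-sided permutation test cannot give a p under 0.1. At the depths given above, 3 reads correspond to 0.0202 to 0.1482 CPM, which covers counting error only. Pairs of replicates differed by more than sampling noise, with chi-square per degree of freedom of 5.17 to 24.71. The fits were tested on simulated data. The changes put into genes there were larger than the gene-level changes given above and followed no trend on GC share. Those runs therefore do not show how often changes of the size reported here are found.

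The genes, lists, comparisons and tests were chosen with earlier results of these data known. Named genes are Hnrnpd, Hnrnpa2b1 and Hnrnph1 in every comparison, up to 12 called genes by p (or the 8 with the smallest p where fewer than 8 were called), 6 transcripts (of at least 1 TPM on average) and 6 ratios per comparison by p, and called genes of the 4 other lists or the 3 with the smallest p. Further genes were named after their values were seen. Of the called list genes, 1 is not reported here. Alternatives changed the scaling, filter, test, length correction, GC trend, replicate block, pseudocounts and libraries. The fit without the 4 libraries high in olfactory bulb markers was added after seeing the data.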

Additional observations from a re-analysis of the deposited data

How the results depend on the processing

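For age under morphine (21 genes called), the count was 0 with the GC and length trend removed, 1 with length-scaled counts, 5 without the libraries with olfactory bulb markers and 6 to 22 with 1 library left out. DESeq2 called 24, and with no filter on low counts 18 were called. Shares of all genes called are not given here for these fits or for those with 1 library left out. Their counts therefore cannot be set against other genes. Hnrnpa2b1, Hnrnpd, Hnrnph1, Hnrnpr and Snrpd1 were called in all 12 fits that left out 1 library. For morphine in old mice (1 called), the count was 2 with no filter, 11 with DESeq2, 0 with length-scaled counts, only the compared libraries, the replicate block or the GC trend removed, and 0 to 8 with 1 library left out. The fit without the olfactory bulb libraries left old saline replicate 3 alone in its group. Its counts for comparisons with old saline are not given. DESeq2 called 1 for the difference between morphine effects. For transcripts, limma on log2(TPM + 0.5) called 1 by age under morphine. Other counts kept to within 1.5 times.

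For same-numbered libraries the correlations of their deviations from the group means were -0.209 to 0.066, and 0 of 18 pairs exceeded 0.1. These values cannot show whether same-numbered libraries shared a batch. Replicate numbers are used here only to name libraries. The replicate block gave 19 calls for age under morphine, all among the 21, and otherwise changed only the count of 1 above.

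Some changes took the opposite sign, those of 4 called genes among them (Nova1, Mbnl2, Prpf39 and Prpf19). By age under saline with the GC trend removed they were Hnrnph1 (-0.02), Hnrnpd (-0.03) and Hnrnpa2b1 (-0.08), and with length-scaled counts Hnrnpd (-0.03). Without the olfactory bulb libraries, which left old saline replicate 3 alone in its group, they were Hnrnpd (-0.05) and Hnrnpa2b1 (-0.06). By morphine in young mice, Hnrnpd was at 0.01 and Hnrnph1 at -0.13 with length-scaled counts, and Hnrnph1 was at -0.01 without the olfactory bulb libraries and at -0.01 to 0.04 with 1 library left out. By age under morphine, Nova1, Mbnl2 and Prpf39 were each at -0.05 with the GC trend removed and Prpf19 at 0.10 with length-scaled counts. For the transcript ratios, decay transcripts alone gave -0.85 for Hnrnpl and -0.06 for Hnrnpd (age under saline), 0.32 for Snrpb and 0.27 for Hnrnpd (morphine in old mice), 0.06 for Hnrnpd (difference) and -0.09 for Hnrnpa2b1 (age under morphine). Retained-intron transcripts alone gave -0.08 for Hnrnpr and 0.00 for Hnrnpa2b1 (age under saline), 0.02 for Srsf2 and -0.06 for Hnrnpr (morphine in young mice) and 0.05 for Hnrnpr (difference), and reads in place of TPM gave 0.25 for Hnrnpd (morphine in old mice). With 1 library left out, the ratio of Hnrnpd ranged over -0.46 to 0.41 (morphine in old mice), -0.77 to 0.10 (difference) and -0.40 to 0.46 (age under morphine), and that of Hnrnpa2b1 over -0.16 to 0.02 (age under saline). The cause was not tested. Estimated counts of single transcripts carry assignment error that no deposited file gives.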
